A study of Mus musculus with 2 samples.

Results

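Lef1 peaks were examined at 10 genes that restrain signalling from the T cell receptor: the diacylglycerol kinase genes Dgka and Dgkz, the ubiquitin ligase genes Cblb and Cbl, the phosphatase genes Ptpn22, Ptpn6 and Ubash3a, Tagap, and the surface receptor genes Cd5 and Cd6. Every listed peak with at least 1 base inside the gene body or within 50 kb of it was taken (mm10; gene bodies from RefSeq, GRCm38.p6). This gave 12 of the 2052 listed peaks, at 5 of the 10 genes. Dgka, Cblb, Ptpn22, Ptpn6 and Tagap had peaks, and Dgkz, Cbl, Ubash3a, Cd5 and Cd6 had none.

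Lef1 belongs to the TCF/LEF family of transcription factors, known as the nuclear end of the Wnt pathway and for their part in T cell development. Its binding was mapped by chromatin immunoprecipitation and sequencing (ChIP-seq) with the anti-Lef1 antibody C18A7. The wild-type library came from conventional CD4+ T cells (labelled TCRb+, CD4+, CD25-) of the spleens of wild-type C57BL/6 mice aged 8 to 10 weeks. The series text also gives these cells as GFP-negative, and no reporter is named. The control library came from TCRb+, CD4+ cells, given as all CD4 T cells, of CD4-Cre+ Lef1 fl/fl mice on the C57BL/6 strain, immunoprecipitated with the same antibody; their age is not given in the sources used here. Both are also labelled naive CD4 T cells, so that the gates of the libraries may have differed. CD4-Cre is active from the thymus onwards, so deletion of the floxed Lef1 gene precedes the mature T cell. Each kind had 1 library, without replicates. No comparison between conditions could be tested, and a peak's score says nothing of its reproducibility. A peak list shows occupancy and not expression, so the labelled cell type could not be checked by it: of 7 T cell marker genes with a protein-coding entry, 2 had a peak (Lck and Cd28).

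When a T cell receptor meets its ligand, the kinases Lck and Zap70 are switched on, and phospholipase C makes diacylglycerol, which activates Ras and protein kinase C. Each of the brakes acts on a step of this chain. Diacylglycerol kinases turn diacylglycerol into phosphatidic acid, Cbl proteins attach ubiquitin to activated signalling proteins, Ptpn22 and Ptpn6 (SHP-1) remove phosphate from tyrosines, and Cd5 and Cd6 recruit inhibitory proteins to the membrane.

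Of the peaks near these genes, 2 reached into the promoter window of a gene, and in both cases it was a neighbouring gene. The windows are shown because they hold the only peak DNA among the sequences used here. Each runs from 250 bases before to 50 after a RefSeq start site (GRCm38.p6) and is printed 5′ to 3′ on the gene's strand, with the bases inside the peak in capitals. The Cdk2 window, chr10:128705002-128705301 (minus strand), holds the whole of the weaker peak of Dgka, and the Grcc10 window, chr6:124741020-124741319 (minus strand), holds 161 of the 264 bases of a peak of Ptpn6.
Cdk2: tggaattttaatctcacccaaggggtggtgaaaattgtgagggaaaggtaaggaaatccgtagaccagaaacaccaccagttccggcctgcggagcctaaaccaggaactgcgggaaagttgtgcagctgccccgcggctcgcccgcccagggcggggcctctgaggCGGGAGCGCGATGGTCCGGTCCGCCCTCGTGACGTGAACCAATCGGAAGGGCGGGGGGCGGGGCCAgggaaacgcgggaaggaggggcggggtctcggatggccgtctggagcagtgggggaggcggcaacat
Grcc10: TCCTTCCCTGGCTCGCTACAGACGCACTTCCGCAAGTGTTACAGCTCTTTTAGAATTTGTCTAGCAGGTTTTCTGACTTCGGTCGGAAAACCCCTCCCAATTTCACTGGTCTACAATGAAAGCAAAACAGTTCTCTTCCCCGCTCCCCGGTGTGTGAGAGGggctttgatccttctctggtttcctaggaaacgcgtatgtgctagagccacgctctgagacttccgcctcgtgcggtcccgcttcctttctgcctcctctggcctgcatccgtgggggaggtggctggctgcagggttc
TCF/LEF factors favour the core CTTTGA, which reads TCAAAG on the other strand, or CTTTGT, which reads ACAAAG there. Neither word was found in the capitals of either window. The Grcc10 window holds CTTTGA once, read as CTTTGAT with the next base, beginning 87 bases before the start site and 2 bases outside the edge of the peak. The 66 peak bases in the Cdk2 window were 74.2% G or C, and the 161 in the Grcc10 window 50.3%. Of all 32851 promoter windows in the table, 31.2% hold at least 1 of these words on either strand, so a match or its lack is a description of these letters only.

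The same words were looked for in the promoter windows of the genes themselves, of which the table held 14 for 9 genes (Cd6 had no entry). They occurred in 4 of the 14 windows (28.6%), against the 31.2% of all windows. The windows below belong to the 3 genes that had both a peak nearby and a word, and capitals mark the words. The first is the most upstream of the 4 Dgka windows, chr10:128745035-128745334 (minus strand), the second the downstream window of Ptpn22, chr3:103860027-103860326 (plus strand), and the third that of Tagap, chr17:7925750-7926049 (plus strand).
Dgka: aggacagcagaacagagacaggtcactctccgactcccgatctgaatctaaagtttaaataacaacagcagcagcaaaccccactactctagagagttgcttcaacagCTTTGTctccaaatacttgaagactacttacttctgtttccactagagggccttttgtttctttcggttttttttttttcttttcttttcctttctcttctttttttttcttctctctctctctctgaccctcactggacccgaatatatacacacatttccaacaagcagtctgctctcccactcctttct
Ptpn22: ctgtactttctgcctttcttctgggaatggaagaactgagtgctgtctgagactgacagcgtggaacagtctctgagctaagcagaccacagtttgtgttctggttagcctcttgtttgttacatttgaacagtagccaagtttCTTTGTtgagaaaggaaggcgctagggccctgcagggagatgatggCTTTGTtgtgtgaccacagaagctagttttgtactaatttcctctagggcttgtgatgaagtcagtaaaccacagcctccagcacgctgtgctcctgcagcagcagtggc
Tagap: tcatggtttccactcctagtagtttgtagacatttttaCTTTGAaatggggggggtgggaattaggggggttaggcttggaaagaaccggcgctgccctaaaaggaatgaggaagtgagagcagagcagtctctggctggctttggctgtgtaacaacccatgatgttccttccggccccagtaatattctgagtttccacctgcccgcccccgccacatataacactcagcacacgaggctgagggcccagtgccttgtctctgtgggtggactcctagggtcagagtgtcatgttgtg
Dgka had CTTTGT beginning 142 bases before this start site, and another of its windows, chr10:128744027-128744326, had CTTTGA. Ptpn22 had CTTTGT at 106 and at 60 bases before the start site. Tagap had CTTTGA at 212 bases before it. The windows of Cblb, Ptpn6, Dgkz, Cbl, Ubash3a and Cd5 held neither word. No peak overlapped a promoter window of any of the 9 genes, those with words included.

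Across the 10 genes, 5 had a peak, or 50%. Of all 21887 protein-coding genes, 15.5% had at least 1 peak by the same rule. Within 10 kb 4 of the 10 had a peak, against 7.33% of all genes, and within 100 kb 5, against 24.6%. Inside the body 1 did, against 4.51%. With distances taken from start sites 5 of the 9 genes in the promoter table did, against 12.4% of all genes in it, and with peaks above the median score 4, against 5.84%. The 12 peaks lay in 1.48 Mb of windows, which is 8.09 per Mb (95% exact Poisson interval 4.18 to 14.1), against 1.05 per Mb in the 50 kb windows of all autosomal protein-coding genes. The interval covers counting error only and takes neighbouring peaks as independent, which those of Tagap may not be. The genes were chosen with earlier results of these data known, so the difference from the background is a description.

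**Figure D1:**
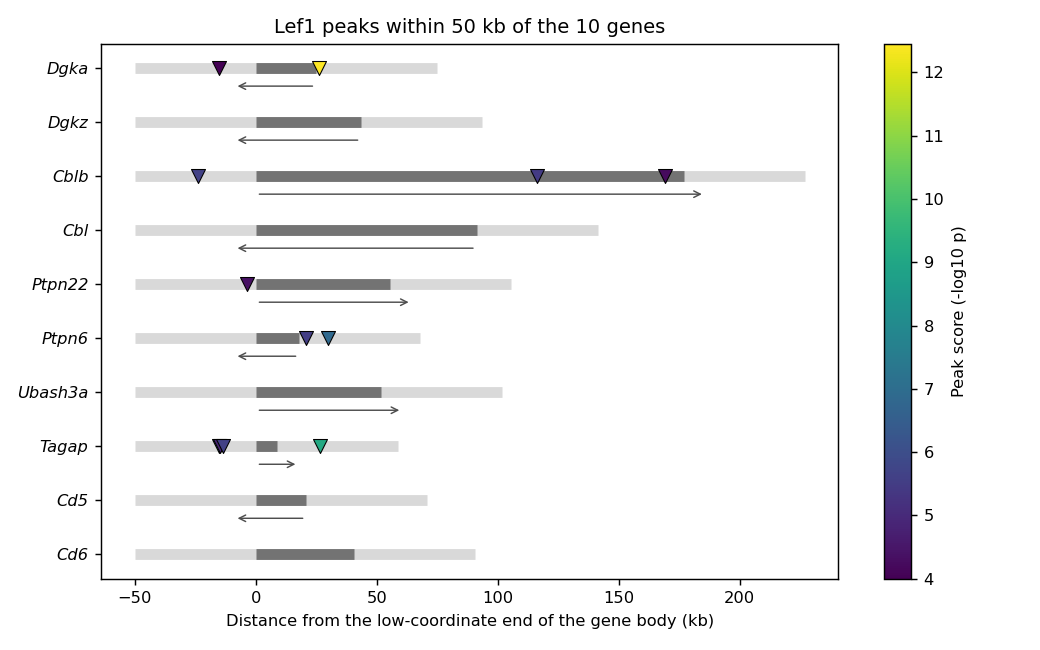
Positions of the 12 Lef1 peaks (triangles, coloured by score) along the 10 genes, in kb from the low-coordinate end of each gene body. Dark bars are gene bodies, pale bars the 50 kb on either side, and arrows the direction of transcription where the promoter table gives it; the 2 triangles inside a body are both in Cblb.

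Most of these peaks lay before the genes. With each gene read in its direction of transcription, 8 of the 12 lay upstream of the body, 2 inside it and 2 beyond its end. Of the 8, 3 are close neighbours at Tagap. Of the 3473 pairs of a peak and a protein-coding gene within 50 kb whose strand was known, 34.7% were upstream, 31.6% inside and 33.7% downstream. The only peaks inside a body were those of Cblb, the longest of the 10 genes. The 12 peaks were not all close to a start site: the median distance to the nearest coding start site of any gene was 11.4 kb, against 17.5 kb for the 1668 peaks within 50 kb of a coding gene.

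Dgka encodes diacylglycerol kinase alpha, the form tied to anergy in T cells, and had the highest score of the set. Its main peak scored 12.45 (scores are −log10 p, as deposited) over 221 bp, chr10:128746270-128746490, and ranked 19 of 2052. It lay 1.19 kb upstream of the gene body, in the gap between Dgka and Pym1, a gene of the exon junction complex, whose body was 1.39 kb away on the other side. The distance does not assign the peak to either gene. The other peak of Dgka was among the weakest of the whole list, with a score of 4.01, shared by 3 peaks, over 66 bp (chr10:128705069-128705134). It lay 15.0 kb beyond the end of Dgka, inside Pmel, a pigment cell gene, and centred about 50 bases upstream of the start site of Cdk2, a cell cycle kinase. Dgka thus had 1 strong and 1 marginal peak, and the marginal one lay at the start of another gene.

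Dgkz encodes the zeta form, which also consumes diacylglycerol in T cells, and had no peak inside or within 50 kb. The nearest listed peak was 203 kb from its body, inside Ambra1, with a score of 4.99. The diacylglycerol kinase family had peaks at 3 of its 10 genes, and at 2 of 8 without Dgka and Dgkz, against 15.5% of all protein-coding genes. Besides Dgka these were Dgkh, with 1 inside the gene (4.40, chr14:78690460-78690538), and Dgkd, with 1 at 5.84 kb upstream (4.08, chr1:87847368-87847427). Both scores lay at or below the median of the list, 4.40, well under the 12.45 at Dgka.

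Cblb encodes Cbl-b, a ubiquitin ligase that makes T cell activation depend on costimulation, and had 3 peaks spread over 193 kb. The first lay 24.0 kb upstream of the body (5.63, 186 bp, chr16:52007087-52007272). The next were inside the gene, 116 kb from its start site (5.48, 73 bp, chr16:52147547-52147619) and 169 kb from it (4.23, 250 bp, chr16:52200301-52200550). The last was the widest of the 3 and had the lowest score. For the first and second no other protein-coding gene lay within 50 kb. The third lay 48.4 kb from the end of Alcam, which encodes the ligand of Cd6. Cblb was therefore the only one of the 10 genes for which all listed peaks had the gene itself as their nearest coding gene and some lay inside it.

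Cbl encodes c-Cbl, the relative of Cbl-b with a larger part in thymocytes, and had no peak. The nearest was 127 kb away, inside Vps11, with a score of 8.91 (chr9:44361597-44361811). In the list of Cbl and Sts family genes 3 of 8 had a peak (37.5%, 95% exact Clopper-Pearson interval 8.52 to 75.5%), an interval that holds the 15.5% of all protein-coding genes, and the 2 besides Cblb had low scores. Cblc had 1 of 4.25 at 43.6 kb, and Ubash3b (Sts-1) had 1 of 4.35 inside the gene (chr9:41073699-41073764). Ubash3a itself (Sts-2), a protein of lymphocytes that binds Cbl and ubiquitin, had none, and its nearest listed peak was 581 kb away, with a score of 4.99.

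Ptpn22 encodes the phosphatase PEP, which acts with the kinase Csk on Lck and Zap70. It had 1 peak of 4.35 over 55 bp, the narrowest width in the list (chr3:103852800-103852854). The peak lay 3.72 kb upstream of the body and 6.97 kb from the nearest Ptpn22 start site in the table, inside Bcl2l15, a gene of the Bcl2 family. Its score was below the list's median, and it ranked 1481.

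Ptpn6 encodes SHP-1, a phosphatase that inhibitory receptors recruit through their cytoplasmic tails. It had 2 peaks, both upstream and 9.06 kb apart. The nearer lay 2.45 kb from the body and scored 5.53 over 264 bp (chr6:124741159-124741422), the widest of the 12. It was 90 bases from the body of Grcc10, and part of it is printed above in that gene's promoter window. The other scored 6.84 over 96 bp (chr6:124750480-124750575) and lay 11.8 kb from Ptpn6, inside Atn1, which encodes the corepressor atrophin. The locus is dense with genes: 7 other protein-coding genes reached into the window of Ptpn6, and each peak had 8 genes within 50 kb. Neither peak had Ptpn6 as its nearest gene.

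Tagap encodes a GTPase-activating protein that is made on T cell activation, and had the most peaks, 4. It is the shortest of the 10 genes, with a body of 8.9 kb. Upstream of it 3 peaks lay in a stretch of 1.76 kb. They scored 8.01 (84 bp, chr17:7910958-7911041), 4.83 (59 bp, chr17:7911163-7911221) and 5.63 (144 bp, chr17:7912579-7912722), at 15.0, 14.8 and 13.3 kb from the body. The first pair is separated by 121 bp and the second by 1.36 kb, so that they can be parts of a single site, and Tagap was the nearest coding gene of all 3. The fourth had the highest score at this gene, 9.09, over only 59 bp (chr17:7952354-7952412). It lay 17.5 kb beyond the end of Tagap, inside Rsph3a, a gene of the radial spoke of cilia. A score this high was unusual at such a width: of the 97 listed peaks with a score of at least 8, the median width was 213 bp and 5 were 60 bp or narrower. Just outside the 50 kb limit lay 1 more peak, 50.8 kb upstream of Tagap (5.16, chr17:7875004-7875196). It is not among the 12. The farthest peak counted was the one at 24.0 kb from Cblb.

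Cd5 and Cd6 are neighbouring genes on chromosome 19 for receptors of the scavenger receptor cysteine-rich family, and Cd5 levels follow the strength of receptor signals in T cells. Neither had a peak. Their windows overlapped, and the nearest listed peak was the same for both, 617 kb from Cd5 and 526 kb from Cd6 (6.91, chr19:11355718-11355960), with Ms4a4a as the closest gene. Of 9 genes of this family and their ligands with a protein-coding entry, 1 had a peak (11.1%, 95% exact Clopper-Pearson interval 0.281 to 48.2%), close to the 15.5% of all protein-coding genes. It was Alcam, and the peak is the one inside Cblb described above.

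An empty window says little at the density of this list. At 1.05 peaks per Mb the windows of the 5 genes without a peak would each hold between 0.127 (Cd5) and 0.202 (Cbl) peaks. Over the 20665 autosomal protein-coding genes the median distance to the nearest listed peak was 287 kb, and the middle 50% ran from 94.9 to 684 kb, a range that holds all of the 5 empty genes. The list is also only part of the numbered calls. The peak numbers run from 26 to 33876 and rise with position on every chromosome, so the numbers skipped between listed peaks can be counted. Between the listed peaks on either side of Cd5 and Cd6, which are 1340 kb apart, 25 numbers are missing from the list. On either side of Ubash3a the gap was 2540 kb with 48 missing numbers. The positions and scores of those calls are not analysed here.

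The peaks near the brakes scored higher than most of the list. Their scores ran from 4.01 to 12.45 with a median of 5.58, against 4.40 for all 2052 peaks. Above the list's median were 9 of the 12 (75%, 95% exact Clopper-Pearson interval 42.8 to 94.5%), against 30.6% of all peaks. The interval takes the 12 peaks as independent, although they come from 5 genes and include the 3 neighbouring upstream peaks of Tagap. The difference is therefore a description. At least 8 was reached by 3 (25%), namely the upstream peak of Dgka and 2 at Tagap, against 4.73% of all peaks. The commonest score of the list, 4.40, was that of 828 peaks (40.4%) and of none of the 12. Peaks below the median were the weaker peak of Dgka, the third of Cblb and the one of Ptpn22.

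**Figure D2:**
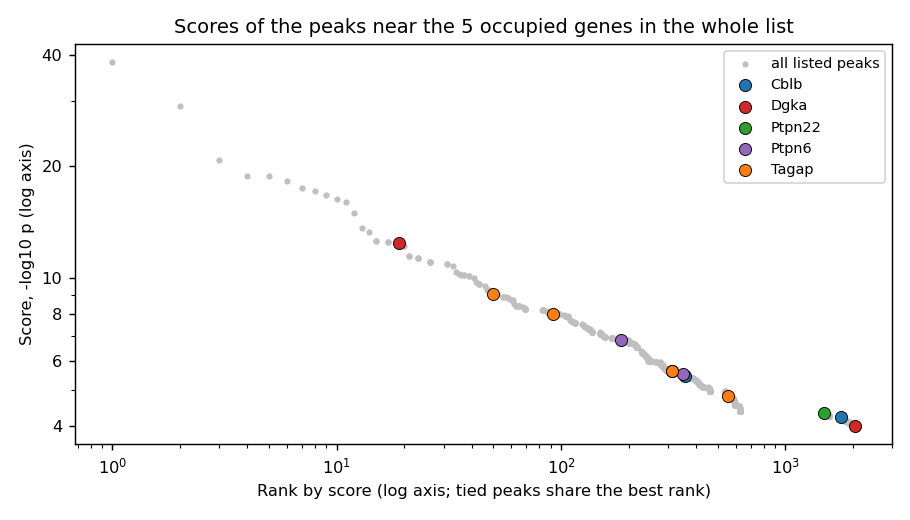
Score (−log10 p, log axis) against rank (log axis) for all 2052 listed peaks in grey, with the 12 peaks near the 5 occupied genes in colour. The upstream Dgka peak (12.45) ranks 19, Tagap follows at 9.09 and 8.01, and 3 peaks sit at the low end between 4.01 and 4.35.

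Some of the scores fell on fixed steps. The commonest score was taken as that of a count above 4 under a Poisson distribution (as −log10 p). The mean that gives this score, 0.364, was solved for, so that match holds by construction. The next value of that series, for a count above 5, is 5.63. This value, within 2e-05, was the score of 34 peaks, among them the upstream peak of Cblb and the peak of Tagap 13.3 kb upstream. The 6.91 of the peak nearest to Cd5 and Cd6 is the value for a count above 6. On this series the scores 4.40 and 5.63 are 1 count apart. No score of the other 10 peaks fell on the series. Depth is unknown, and read counts were not used here.

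**Figure D3:**
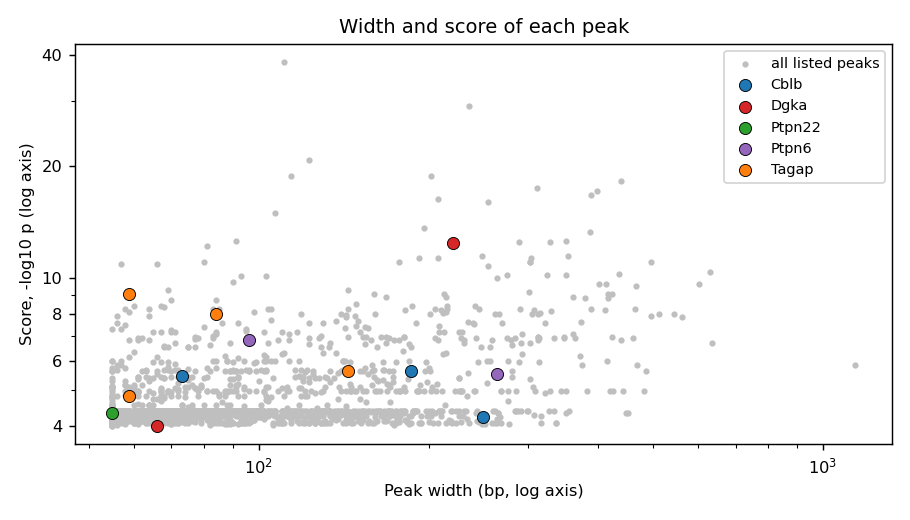
Width (bp, log axis) against score (−log10 p, log axis) for all listed peaks in grey and the 12 peaks in colour. The upstream Dgka peak is both wide (221 bp) and high (12.45), the Tagap peak at 9.09 is only 59 bp wide, and the widest, at Ptpn6 (264 bp), scores 5.53.

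Widths of the 12 ran from 55 to 264 bp with a median of 90 bp, against 79 bp for the whole list. Inside some protein-coding gene lay 6 (50%), against 52.4% of the list, but only 2 of the 6 were inside one of the 10 genes. The others were inside Pmel, Bcl2l15, Atn1 and Rsph3a. The nearest gene to the peak centre was one of the 10 for 7 of the 12 peaks and another gene for 5. With each peak given only to its nearest gene, 3 of the 10 genes kept a peak, Dgka with 1, Cblb with 3 and Tagap with 3, against 6.67% of all protein-coding genes.

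Other brakes of the pathway were looked at in the same way. Of 41 further intracellular inhibitors 10 had a peak (24.4%, 95% exact Clopper-Pearson interval 12.4 to 40.3%), against the 15.5% of all protein-coding genes. The highest scores were at Nedd4 (7.29), a ubiquitin ligase gene, and Csk (6.84, inside the gene), which encodes the kinase that switches Lck off. They were followed by Nf1 (4.99), an inhibitor of Ras, Inpp5d (4.88), the lipid phosphatase SHIP-1, and Pag1 (4.58), the adaptor that holds Csk at the membrane. Lax1, Stub1, Ubash3b, Rasa2 and Ptpn2 had peaks of 4.40 or less. None was found at Arhgap15, Arhgap45, Cyld or Dok1. Among 17 non-receptor tyrosine phosphatase genes, 4 had a peak (23.5%, interval 6.81 to 49.9%), an interval that holds the 15.5% of all protein-coding genes. Without Ptpn6 and Ptpn22, which are among the 10 genes chosen here, 2 of 15 had one. The highest scores were those of Ptpn6 (6.84) and Ptpn22 (4.35), followed by Ptpn2 (4.25) and Ptpn18 (4.17).

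Of 18 inhibitory receptor genes 8 had a peak (44.4%, interval 21.5 to 69.2%), against 15.5% of all protein-coding genes. With each peak given only to its nearest gene 4 of the 18 had one, against 6.67% of all genes, and with peaks above the median score 3 did, against 5.84%. Havcr2, which encodes Tim-3, had the highest score (8.01), but the peak was 49.5 kb from the gene, just inside the limit. Pdcd1, which encodes PD-1, had 5.41 at 2.71 kb, and Ctla4 had 4.20 inside the gene. Cd96 (4.58), Lair1 (4.40), Cd200 (4.25), Klrg1 (4.17) and Cd101 (4.06) were the others. Btla, Cd160, Cd200r1 and Cd244a had none. Of 16 factors of anergy and exhaustion 7 had a peak (43.8%, 19.8 to 70.1%, against the same 15.5%; 5 by either of these narrower rules), led by Dtx1 (18.29) and Egr3 (5.68), with Slfn2 (5.44), Ikzf1 (5.12), Klf2 (4.99), Nfatc1 (4.40) and Tob1 (4.25). Egr2, Foxo1, Foxo3 and Klf4 had none.

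The genes on the activating side of the same pathway had the highest share among the lists compared here. Of 30 genes 18 had a peak (60%, 40.6 to 77.3%), against 15.5% of all protein-coding genes. Scores ran from Ptprc (12.57), Vav1 (8.06), Cd247 (7.22), Zap70 (7.07) and Prkcq (6.95) to Cd28 (4.08). With each peak given only to its nearest gene 13 of the 30 had one, against 6.67% of all genes. With peaks above the median score 10 did, against 5.84%. The difference from the 5 of 10 brakes was not tested. Genes can share a peak, within a list or between lists, as Cblb and Alcam of different lists do. The 18 activating genes had 26 distinct peaks between them, fewer than their separate counts add up to.

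**Figure D4:**
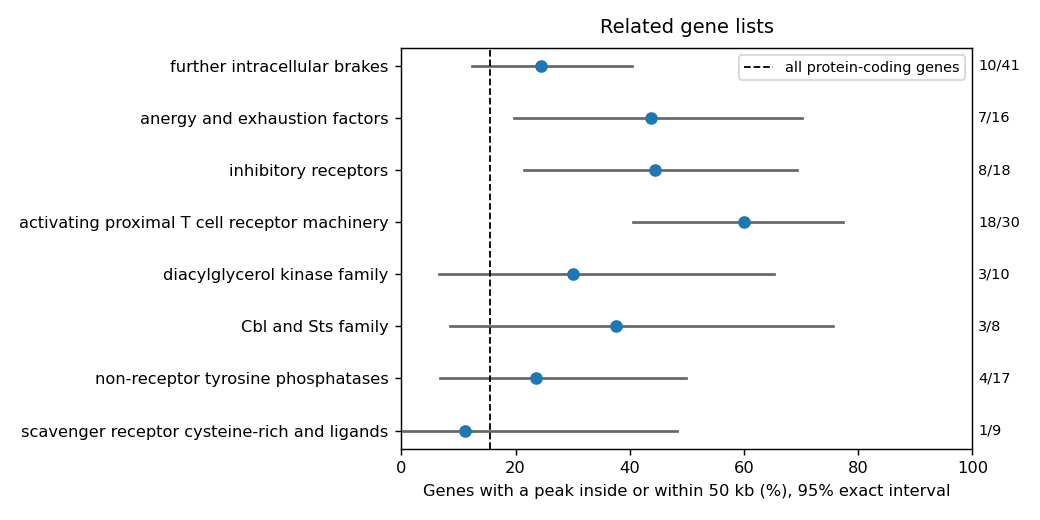
Share of genes with a Lef1 peak inside or within 50 kb of the body (points, in percent) for each related list, with 95% exact Clopper-Pearson intervals as bars and the number of genes at the right. The dashed line is the 15.5% of all protein-coding genes; the activating genes stand at 60% and the further intracellular brakes at 24.4%.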

How the data were processed

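Lef1 ChIP-seq was done on 1 wild-type and 1 Lef1-deficient library, and per the labels the deficient one served as the control for calling. The deposited list holds peaks with the −log10 of the p-value of each, per the file headers, from 4.01 upwards. FastQC, Bowtie2 2.3.4.1, MACS2 2.1.1 and mm10 are named in the submitters' processing notes without parameters; for other filters and the depth, the sources used here give nothing.

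Starts were raised by 1, taking the list as BED. Gene bodies (21887 protein-coding genes) came from a RefSeq table of GRCm38.p6, and strand, start sites and sequences from its promoter table, which covers 17492 of them. Peaks were joined to genes with Python 3.11.15, pandas 2.3.3 and scipy 1.17.1. The join was tested on simulated data. No test was run, as there is 1 library of each kind. Alternatives were other distances, the nearest gene only, peaks above the median score, peak centres, merged peaks and other TCF/LEF words; distance from start sites was added after the data were seen. All 10 genes are named, and list genes with a peak are named, at most 12 to a list by score, with up to 4 without a peak in alphabetical order. The genes and lists were chosen with earlier results of these data known. Some items are not reported here.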

Additional observations from a re-analysis of the deposited data

How the results depend on the processing

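The count of 5 genes with a peak stayed at 5 within 100 kb, with peak centres and with start sites in place of gene bodies (an alternative chosen after seeing the data), and was 4 within 10 kb (without Tagap) and 4 with peaks above the median score (without Ptpn22). It was 3 with the nearest gene only and 1 (Cblb) inside the body only. The 12 peaks became 13 within 100 kb, 11 with peaks within 1 kb counted once, 10 with start sites and 9 above the median score, but 7 with the nearest gene only, 5 within 10 kb and 2 inside the body only. Narrower rules count fewer peaks by construction. The highest score, 12.45, held in each of these settings except inside the body only, where it was 5.48. Words were found in 14.3% of the 14 windows with the longer words (16.9% of all windows) and 57.1% with the shorter CTTTG (53.9%). No paired analysis was possible because the design has no replicates, which also left no replicate to omit. Depth is unknown, so weaker binding below the threshold would not be seen.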
